A study of Sus scrofa with 23 samples.

Results

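The comparison set 6 samples taken 28 days after birth (28 days post natum, dpn) against 5 samples taken before birth (94 days post conception, dpc), 11 of the 23 samples of the series, and was chosen by stage alone. Every animal was the offspring of a German Landrace gilt on a low protein diet in gestation, so the comparison spans late fetal life to the usual age of weaning within 1 diet group and holds no test of diet. Gene expression was read with a porcine Affymetrix array, 1 array per animal. Each stage drew on 3 gilts, and which gilt bore an animal is not in the labels. Some animals of a stage therefore shared one, and p-values that treat them as independent may be too small. The question the comparison answers is which transcripts changed in level between the fetus and the piglet.

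Skeletal muscle is laid down before birth in overlapping tasks: muscle precursors divide and fuse, and the fibres then exchange embryonic and fetal isoforms of the contractile proteins for the fast and slow isoforms of the adult. After birth the fibres build up their stores of creatine phosphate and glycogen, burn more fat and gain mitochondria. Liver changes in the same period from a blood forming organ into the source of plasma proteins, glucose and bile. Across tissues, fetal growth is driven in part by imprinted genes, which are expressed from a single parental copy, and by insulin-like growth factor 2 (IGF2), while cell division slows after birth.

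The records disagree on the tissue: each sample is labelled liver and the title of the series names muscle. Muscle markers were bright in all 11 samples. The muscle creatine kinase CKM read 39615 to 48137 at 94 dpc and 54155 to 93811 at 28 dpn. Ranked within an array, the 11 measured genes of fast fibres had their median at percentile 99.6 to 99.9, whereas the 42 measured genes of hepatocytes had it at 23.4 to 77.9. Albumin (ALB), which hepatocytes secrete into plasma, read 1159 in 94 dpc replicate 3 and 6399.8 in 28 dpn replicate 1, against 163 to 271.8 in the other fetal and 34.5 to 173.6 in the other piglet samples. The samples are called samples labelled liver here.

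Some arrays stood apart in their controls. The bacterial spike-in Dap reports how far labelled copies reach toward the 5' end of a transcript. Its 5' to 3' ratio was 0.355 to 0.493 in 94 dpc replicates 1, 2 and 3, against 0.0565 and 0.113 in the other fetal arrays and 0.0703 to 0.104 in all 28 dpn arrays. The signal of the spike-in bioD was 23579.8 and 27379.5 in 28 dpn replicates 1 and 2 and at most 16024 in the other 9 arrays. The arrays carry a pair of 5' to 3' ratios each for actin and GAPDH. One actin ratio separated the stages completely (0.820 to 1.1 at 94 dpc, 1.32 to 1.61 at 28 dpn) and the other overlapped (0.0988 to 0.280 against 0.0822 to 0.128). One GAPDH ratio separated them (0.817 to 0.923 against 0.664 to 0.732) and the other overlapped (1.14 to 1.23 against 1.1 to 1.29). Age cannot be told apart from what the separating ratios reflect. The part of these controls in the results was not tested. Results were also computed without each of these groups of arrays, and without 94 dpc replicate 3 and 28 dpn replicate 1. Leaving out the arrays of high Dap ratio keeps only 2 fetal arrays, so that fewer genes could be called for that reason alone.

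Between the stages, 7181 of 23999 probe sets passed an adjusted p of 0.05 in limma's test on log2(signal + 16) (29.9%). Of these, 2622 were higher (10.9%) and 4559 lower (19.0%) at 28 dpn, and 1314 and 2169 of them by at least 2-fold. Samples of the stages did not overlap at all for 4941 probe sets (20.6%). The split moved with the scaling of the arrays: 36.5% of the called probe sets were higher on the deposited scale, 48.9% with quantile normalization and 56.9% with every array centred at its own median. These settings placed the median change of all probe sets at -0.10, 0.01 and 0.10 on the log2 scale. On the deposited scale the median signal of an array separated the stages completely (148.9 to 168.8 at 94 dpc, 128.0 to 148.2 at 28 dpn). Its part in the split was not tested. Without the 3 arrays of high Dap ratio the counts were 1649 higher and 2338 lower, and 3731 of those calls had been made with all arrays in the same direction.

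Named genes were read from the brightest probe set with a single gene symbol, which gave 6765 genes. Of these, 1202 were higher (17.8%) and 1484 lower (21.9%) at 28 dpn, 39.7% together, and the samples of the stages did not overlap for 2057 (30.4%). The median change over all genes was -0.07. These shares are the background for the counts of gene groups below. The gene lists were chosen with earlier results of these data known. A count that departs from these shares is therefore a description and no test of a list. The counts over all genes moved with the settings too. They were 1668 higher and 931 lower after median centring, and 1372 higher and 1205 lower after quantile normalization. Without the 3 arrays of high Dap ratio they were 769 higher and 793 lower. Group counts under these settings are to be read beside those numbers. The 12 largest rises and 12 largest falls below were taken only from called genes whose samples did not overlap. That they do not overlap was therefore fixed by the choice. A fold is 2 raised to the difference between the stage means of log2(signal + 16), so that it understates the change of dim transcripts. RNA came from whole tissue pieces, in which fewer cells of a type and less RNA per cell cannot be told apart.

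**Figure D1:**
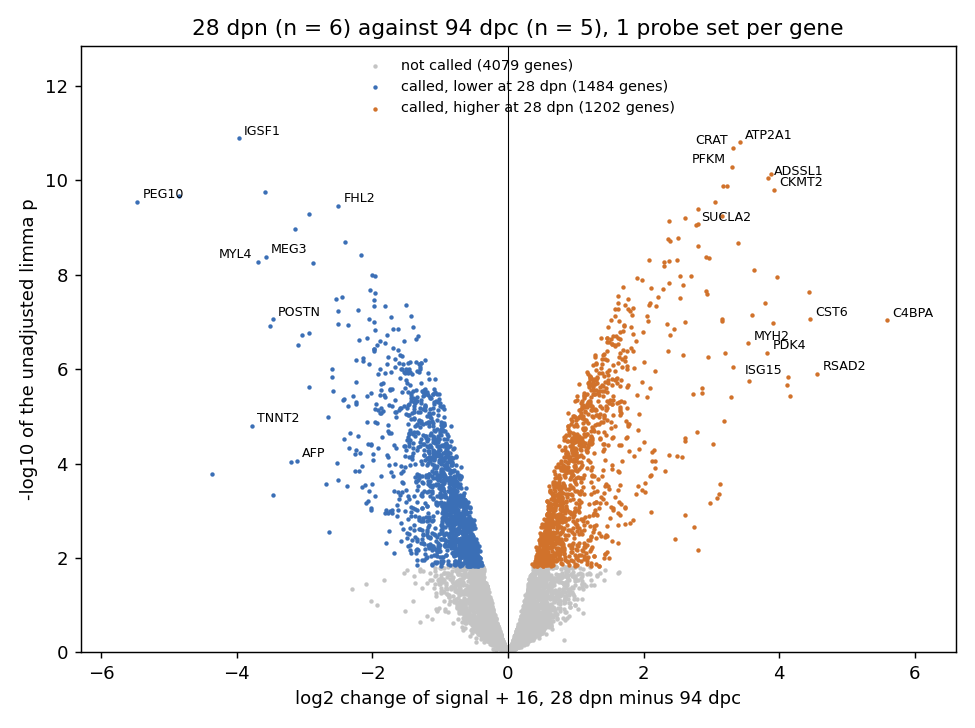
Each point is 1 of 6765 genes, with its log2 change (28 dpn minus 94 dpc) on the horizontal axis and -log10 of the unadjusted limma p on the vertical axis; orange and blue points were called at an adjusted p under 0.05. PEG10 lies farthest to the left at -5.47 and C4BPA farthest to the right at 5.59, and 1484 lower genes face 1202 higher ones.

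The largest falls among genes whose samples did not overlap were led by PEG10, an imprinted gene of retroviral origin. Its signals at 94 dpc were 18083, 15596, 16968, 23793 and 20616, and the lowest, median and highest at 28 dpn were 192, 491 and 672. It fell 44.2-fold (log2 change -5.47, SE 0.30, adjusted p = 3.5e-07), although a dimmer probe set of PEG10 gave 0.67 (adjusted p = 0.188). IGSF1, a membrane glycoprotein of the immunoglobulin superfamily, read 5224, 4571, 3860.3, 4112 and 4352 before birth and 188, 271 and 343 after it. The fall was 15.7-fold (log2 change -3.97, SE 0.17, adjusted p = 7.1e-08). RNF207, a ring finger protein known from cardiac ion channels, fell 11.9-fold (log2 change -3.58, SE 0.19, adjusted p = 2.6e-07), from 208 to 349.6 down to 3.91 to 17.1. RASGEF1A, an exchange factor for Ras proteins, fell 8.53-fold (log2 change -3.09, SE 0.31, adjusted p = 2.5e-05). FNDC1, a secreted protein with fibronectin domains, fell 8.22-fold (log2 change -3.04, SE 0.29, adjusted p = 1.9e-05). The other 7 of the 12 largest falls (TNNT2, MYL4, MEG3, PTN, POSTN, PLAGL1 and AFP) belong to groups described below.

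Among genes whose samples did not overlap, the largest rise was that of C4BPA, an inhibitor of complement that circulates in plasma. Its fetal signals were 105, 145, 55.9, 22.8 and 17.2 and its lowest, median and highest at 28 dpn were 1183, 3595 and 7038. It rose 48.2-fold (log2 change 5.59, SE 0.50, adjusted p = 1.1e-05). Its log2 change was 6.57 without the 3 arrays of high Dap ratio. CST6, a secreted cysteine protease inhibitor, read 58.9, 74.8, 59.4, 85.1 and 7.18 at 94 dpc and 769, 1558 and 2146 at 28 dpn. It rose 22-fold (log2 change 4.46, SE 0.40, adjusted p = 1.1e-05). TRNP1, a nuclear protein known from cortical development, rose 15.7-fold (log2 change 3.97, SE 0.29, adjusted p = 3e-06) from signals of 3.06 to 32.9. The remaining 9 of the 12 largest rises were 4 interferon-stimulated genes (RSAD2, MX1, ISG15, GBP1) and 5 genes of energy supply (CKMT2, UCP3, BPGM, ADSSL1, PDK4).

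**Figure D2:**
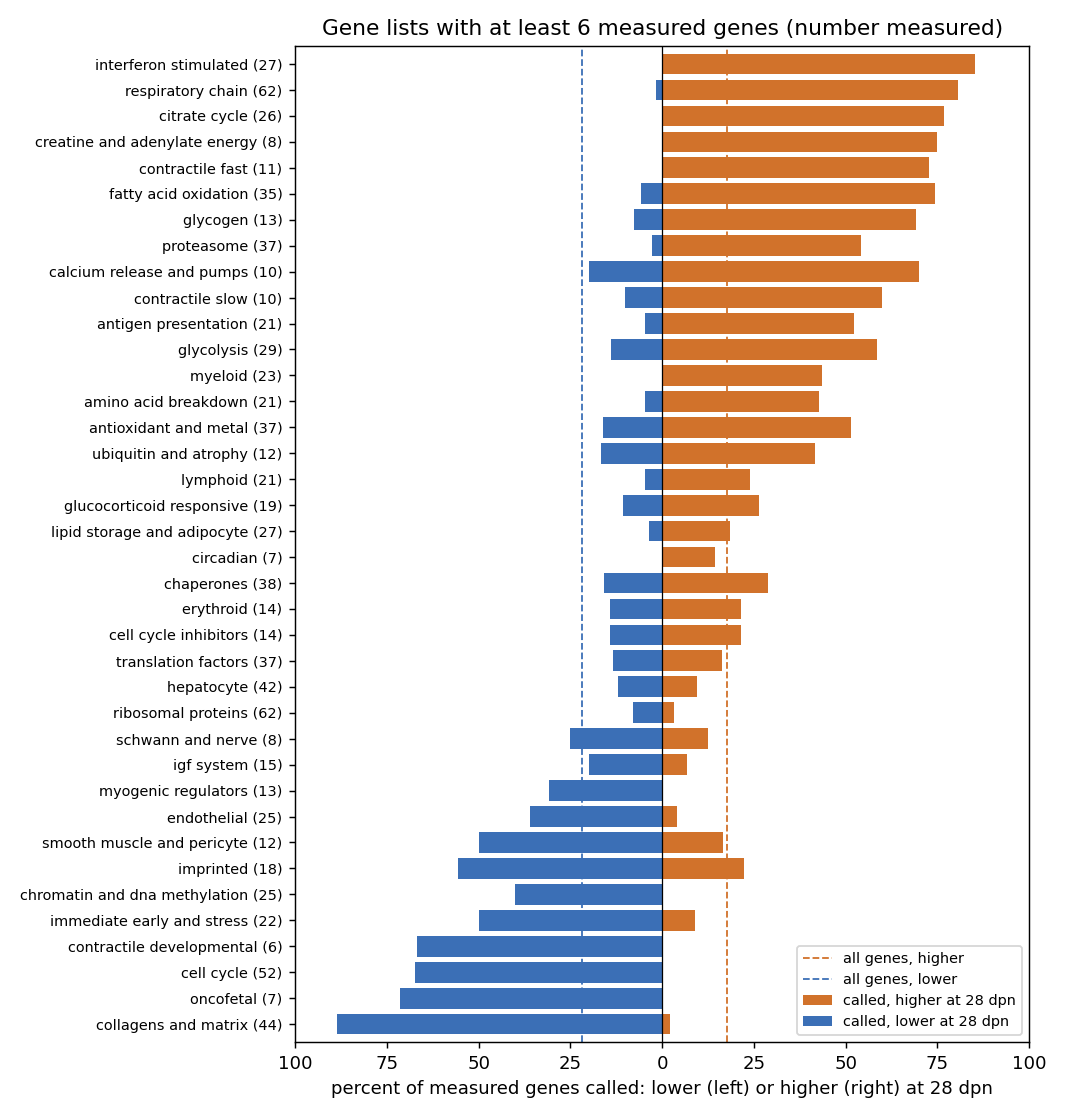
Bars give, for each gene list with at least 6 measured genes, the percent of measured genes called higher (orange, right) or lower (blue, left) at 28 dpn; dashed lines mark the shares over all genes, 17.8% and 21.9%. Interferon-stimulated genes (23 of 27 higher) and genes of the respiratory chain (50 of 62 higher) stand at the top, and collagens and matrix genes (39 of 44 lower) at the bottom. The lists were chosen with earlier results of these data known.

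Contractile proteins of developing muscle were lower after birth. Of 6 measured genes of the developmental list, 4 fell and 0 rose, with a median of -1.02. TNNT2, the cardiac and embryonic troponin T, had fetal signals of 2986, 2534, 2676, 4088 and 3890.2 and a lowest, median and highest piglet signal of 35.6, 271 and 551. It fell 13.7-fold (log2 change -3.78, SE 0.55, adjusted p = 0.0003). MYL4, the embryonic and atrial light chain of myosin, read 4615, 3406, 6131, 8323 and 5891 before and 234, 456 and 530.2 after birth. Its fall was 12.9-fold (log2 change -3.69, SE 0.26, adjusted p = 1.8e-06). The tropomyosin TPM4 fell 2.38-fold (log2 change -1.25, SE 0.19, adjusted p = 0.00043) and ACTA2, the actin of smooth muscle that immature muscle also makes, fell 1.73-fold (log2 change -0.79, SE 0.15, adjusted p = 0.0019). ACTC1, the cardiac actin made by fetal skeletal muscle, did not pass the test (log2 change -0.24, SE 0.27, adjusted p = 0.544): its piglet samples ran from 17319 to 54059 and enclosed all 5 fetal samples, 33482 to 44796. The embryonic and perinatal myosin heavy chains MYH3 and MYH8, the fast chain MYH1 and the skeletal actin ACTA1 were not analysed here.

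Fast fibre genes were higher at 28 dpn: 8 of 11 rose and 0 fell, with a median of 0.73. MYH2, the heavy chain of fast oxidative fibres, read 3208, 16974, 6243, 4829 and 6925 at 94 dpc and 58689, 73159 and 103288 at 28 dpn. It rose 11.6-fold (log2 change 3.54, SE 0.35, adjusted p = 2.3e-05). Fetal replicate 2 stood well above the other fetal samples and still below every piglet sample. Myosin heavy chains are alike in sequence, and whether their probe sets tell them apart was not tested. ATP2A1, the calcium pump of fast fibres, read 2010.2, 2026, 1469.7, 1703 and 1739 before birth and 16922, 19353 and 21861 after. Its rise was 10.7-fold (log2 change 3.42, SE 0.14, adjusted p = 7.1e-08). The Z-disc protein MYOZ1 rose 2.65-fold (log2 change 1.41, SE 0.15, adjusted p = 3.4e-05) and the M-band protein MYOM2 rose 2.17-fold (log2 change 1.12, SE 0.14, adjusted p = 0.00012).

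Other fast isoforms moved less and depended on the scaling. MYL1, the light chain that takes the place of MYL4, read 45088, 47652, 51408, 57939 and 47223 at 94 dpc and 58427, 75411 and 98399.7 at 28 dpn, and rose 1.56-fold (log2 change 0.64, SE 0.16, adjusted p = 0.0106). The fast troponin T, TNNT3, rose 1.66-fold (log2 change 0.73, SE 0.16, adjusted p = 0.0046). Quantile normalization left 4 of the 8 calls and took away those of MYL1 and TNNT3 (adjusted p = 0.472 and 0.122, in that order), and 5 calls were left without the 3 arrays of high Dap ratio, without those of MYL1 and TNNT3. MYLPF and TNNC2, the fast regulatory light chain and fast troponin C, did not pass the test, with log2 changes of 0.39 (adjusted p = 0.119; -0.092 after quantile normalization) and 0.45 (adjusted p = 0.0864). Both passed it after median centring, with 0.59 (adjusted p = 0.0189) and 0.65 (adjusted p = 0.0145), and without 28 dpn replicate 3 (adjusted p = 0.0445 and 0.0383).

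Slow fibre genes were higher as well: 6 of 10 rose and 1 fell, with a median of 0.76. MYL3, the slow and ventricular light chain, had fetal signals of 4309.7, 6751, 3316, 4634 and 4003 and piglet signals of 21331, 29722 and 36501 (lowest, median, highest). It rose 6.51-fold (log2 change 2.70, SE 0.20, adjusted p = 2.8e-06). TNNT1, the slow troponin T, rose 2.37-fold (log2 change 1.25, SE 0.17, adjusted p = 0.00018), from 16222 to 25062 up to 40689 to 60822. MYH7, the slow heavy chain, rose 2.19-fold (log2 change 1.13, SE 0.15, adjusted p = 0.0002), and its samples did not overlap either. CASQ2, the cardiac and slow calsequestrin, was the slow gene that fell: it read 1717, 2482, 1960.0, 972 and 1209 before birth and 114, 314 and 515 after, a fall of 5.33-fold (log2 change -2.41, SE 0.37, adjusted p = 0.00048).

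Genes that release and pump calcium rose in 7 of 10 cases and fell in 2, with a median of 1.00. The release channel of skeletal muscle, RYR1, read 8026, 6311, 6388, 7534 and 6380.4 at 94 dpc and 17102, 19367 and 23744 at 28 dpn, a rise of 2.86-fold (log2 change 1.51, SE 0.15, adjusted p = 2e-05). CACNA2D1, a subunit of the voltage sensor that triggers RYR1, rose 2.93-fold (log2 change 1.55, SE 0.24, adjusted p = 0.00045). The falls were those of CASQ2 and of RYR3, the release channel of immature muscle. RYR3 read 615, 332, 491, 494 and 272 in fetal and 94.0, 176 and 227 in piglet samples and fell 2.4-fold (log2 change -1.26, SE 0.25, adjusted p = 0.0023). Its call was lost without the 3 arrays of high Dap ratio (log2 change -1.07, adjusted p = 0.06).

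Of 13 measured regulators of muscle formation, 4 fell (30.8%) and 0 rose, with a median of -0.42, against backgrounds of 21.9% and 17.8%. With so few genes, the falls are not read as a property of the group. MYF5, a transcription factor that commits cells to muscle, read 729, 919, 468, 235 and 691 before and 65.9, 84.7 and 133 after birth, a fall of 5.4-fold (log2 change -2.43, SE 0.31, adjusted p = 0.00013). Follistatin (FST), which binds myostatin and activin, fell 2.81-fold (log2 change -1.49, SE 0.17, adjusted p = 5.7e-05), and the adhesion protein NCAM1 of new fibres and of the nerve contact fell 2.36-fold (log2 change -1.24, SE 0.21, adjusted p = 0.00084). MYOD1, the companion of MYF5, fell 1.58-fold (log2 change -0.66, SE 0.19, adjusted p = 0.0218) without overlap between the stages. The MYOD1 call was lost without 94 dpc replicate 2 or 5 (adjusted p = 0.0601 and 0.0528). It was also lost after median centring and without the arrays of high Dap ratio, spike-in or ALB signal (adjusted p = 0.103, 0.126, 0.0643 and 0.06, in that order). Myostatin (MSTN), the brake on muscle growth, did not pass the test (log2 change -0.62, SE 0.28, adjusted p = 0.116).

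**Figure D3:**
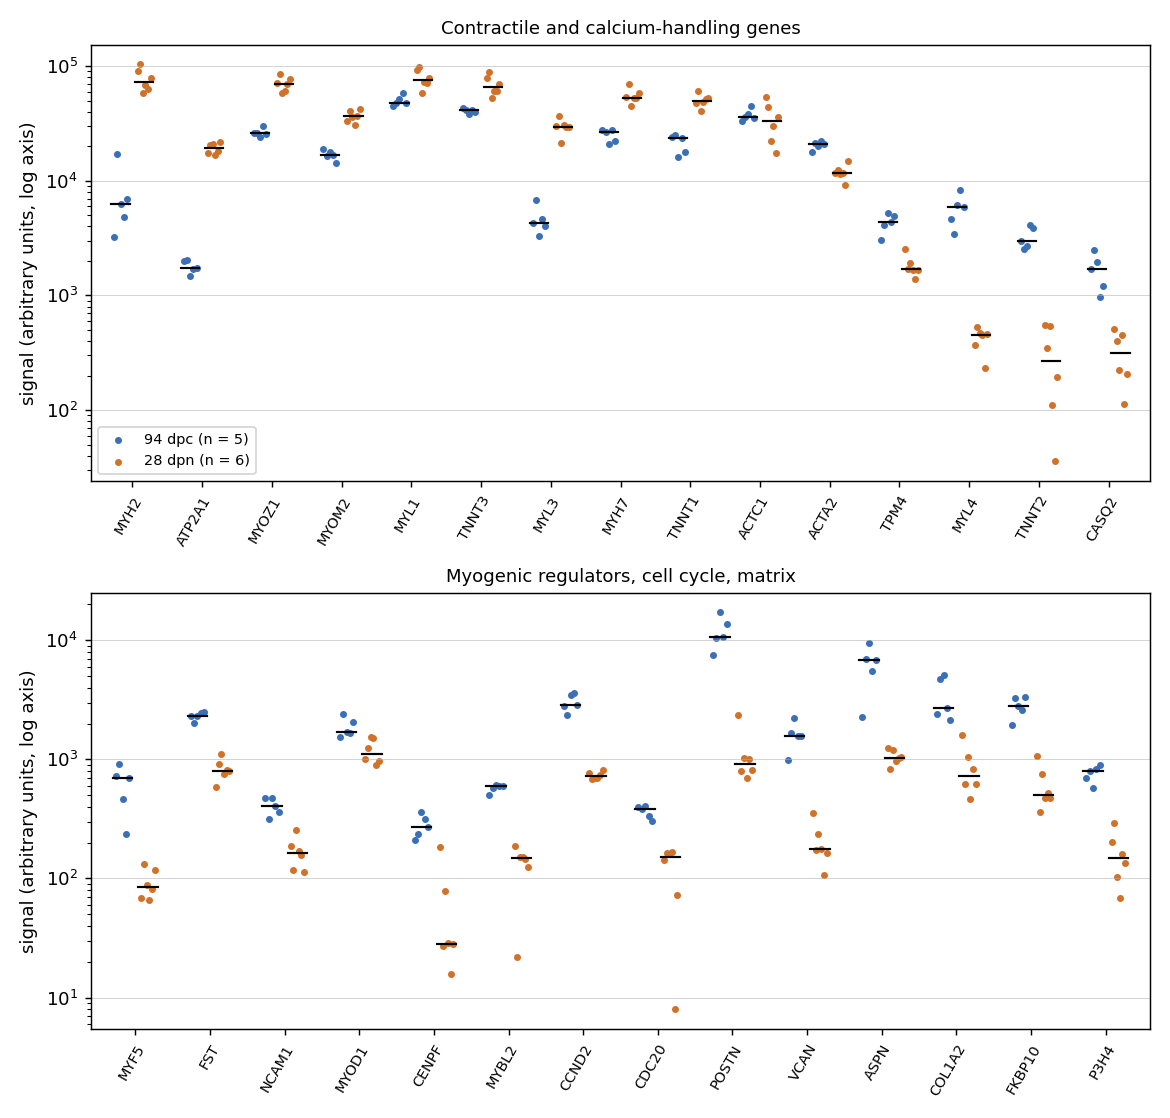
Points are the signals of single samples on a log axis (blue, 5 samples at 94 dpc; orange, 6 samples at 28 dpn), and black lines are medians. The stages separate for MYH2, ATP2A1, MYL4 and TNNT2 and overlap for ACTC1; levels of different genes cannot be compared, since probe sets differ in sensitivity.

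Genes of creatine and adenylate energy transfer, which keep ATP available during contraction, rose in 6 of 8 cases with a median of 1.88, and 0 fell. CKMT2, the mitochondrial creatine kinase of muscle, read 1608, 2341, 1106, 2009 and 1582 at 94 dpc and 20167, 26555 and 30248 at 28 dpn. It rose 15.2-fold (log2 change 3.92, SE 0.20, adjusted p = 2.5e-07). ADSSL1, the muscle enzyme of the purine nucleotide cycle, rose 14.3-fold (log2 change 3.84, SE 0.19, adjusted p = 2.2e-07), and AMPD1, the deaminase of that cycle, rose 5.97-fold (log2 change 2.58, SE 0.20, adjusted p = 3.6e-06). AMPD1 was higher in every piglet sample than in any fetal sample. So were CKMT2 and ADSSL1, which were named from genes picked for no overlap. GAMT, the last enzyme of creatine synthesis, read 639, 651, 531, 782 and 615 before and 3049, 5427 and 6779.6 after birth and rose 7.79-fold (log2 change 2.96, SE 0.20, adjusted p = 1.6e-06). CKM itself rose 1.68-fold (log2 change 0.75, SE 0.16, adjusted p = 0.0044), a call that was lost after quantile normalization (adjusted p = 0.0936) and without the 3 arrays of high Dap ratio (adjusted p = 0.0863).

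Of 29 measured genes of glycolysis and lactate handling, 17 rose and 4 fell, with a median of 1.17. BPGM, which makes bisphosphoglycerate, had fetal signals of 167, 184, 164, 107 and 233 and piglet signals of 2225, 2754 and 3115. It rose 14.7-fold (log2 change 3.88, SE 0.19, adjusted p = 1.9e-07). FBP2, the muscle fructose bisphosphatase, rose 13.8-fold (log2 change 3.78, SE 0.31, adjusted p = 6.6e-06), and LDHD, the mitochondrial dehydrogenase of D-lactate, rose 12.3-fold (log2 change 3.62, SE 0.26, adjusted p = 2.3e-06). PFKM, the muscle phosphofructokinase, read 5449, 5521, 4222, 4328 and 5217 before and 40928, 46382 and 60781 after birth. Its rise was 9.84-fold (log2 change 3.30, SE 0.15, adjusted p = 1.5e-07), without overlap. The 4 genes that fell were PFKL, SLC2A1, SLC2A3 and HK1, and without the 3 arrays of high Dap ratio 2 were left, since SLC2A3 and HK1 lost their calls (adjusted p = 0.136 and 0.0648).

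Glycogen metabolism leaned the same way: 9 of 13 genes rose and 1 fell, with a median of 1.22. PHKB, a regulatory subunit of the kinase that switches on glycogen breakdown, read 1362, 1523, 1644, 1293 and 1145 at 94 dpc and 8518, 9644 and 12492 at 28 dpn, and rose 7.01-fold (log2 change 2.81, SE 0.16, adjusted p = 4.1e-07). PGM1, which links phosphorylated glucose to glycolysis, rose 6.95-fold (log2 change 2.80, SE 0.17, adjusted p = 6e-07). The muscle glycogen phosphorylase PYGM rose 5.81-fold (log2 change 2.54, SE 0.19, adjusted p = 2.8e-06), from 6974 to 10919 up to 39569 to 68958. GYG1, the primer protein of glycogen, rose 4.93-fold (log2 change 2.30, SE 0.16, adjusted p = 2e-06). In all 4, the lowest piglet sample lay above the highest fetal sample.

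Fatty acid oxidation showed 26 rises and 2 falls among 35 measured genes, with a median of 1.01. UCP3, a mitochondrial carrier of muscle, read 67.4, 37.7, 66.8, 6.55 and 107 before birth and 756, 958 and 1138 after, a rise of 15-fold (log2 change 3.90, SE 0.35, adjusted p = 1.2e-05). PDK4, the kinase that turns off pyruvate dehydrogenase when fat is burnt, read 474, 634, 500.1, 208 and 317 and 2597, 6115 and 12195. It rose 14.2-fold (log2 change 3.82, SE 0.39, adjusted p = 3.2e-05), and without the 3 arrays of high Dap ratio its log2 change was 4.43. CRAT, the carnitine acetyltransferase, rose 10-fold (log2 change 3.32, SE 0.14, adjusted p = 7.1e-08). ANGPTL4, a secreted inhibitor of lipoprotein lipase, rose 7.56-fold (log2 change 2.92, SE 0.23, adjusted p = 4.3e-06). The falls were those of UCP2, described with its relative UCP3 below, and of the regulator PPARA. After median centring, and without 94 dpc replicate 4 or 5, 1 fall was left: UCP2 kept its call and PPARA lost it. Without the 3 arrays of high Dap ratio, or with dim probe sets left out, 0 falls were left.

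The citrate cycle and its feeder enzymes rose in 20 of 26 cases and fell in 0, with a median of 1.15. SUCLA2, the subunit of succinyl-CoA ligase that makes ATP, read 637, 1021, 1132, 919.7 and 914 at 94 dpc and 5359.9, 6441 and 6880.0 at 28 dpn. It rose 6.84-fold (log2 change 2.77, SE 0.17, adjusted p = 6e-07). The isocitrate dehydrogenases IDH3A and IDH2 rose 4.56-fold (log2 change 2.19, SE 0.18, adjusted p = 7.2e-06) and 3.38-fold (log2 change 1.76, SE 0.19, adjusted p = 5.3e-05). Malic enzyme ME1, which yields NADPH for fat synthesis, rose 3.94-fold (log2 change 1.98, SE 0.41, adjusted p = 0.0031), and its call was lost without the 3 arrays of high Dap ratio (log2 change 1.38, adjusted p = 0.0944).

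In the respiratory chain and ATP synthase, 50 of 62 measured genes rose and 1 fell, with a median of 0.83. By complex, 26 of 33 genes of complex I rose (median 0.82), 4 of 4 of succinate dehydrogenase (median 1.19), 2 of 2 of complex III, 5 of 7 of cytochrome c oxidase and 12 of 15 of ATP synthase (median 0.70). NDUFS1, the largest subunit of complex I, read 1454, 1470.5, 1494, 1412 and 1219 before and 3598, 4241 and 4832 after birth and rose 2.99-fold (log2 change 1.58, SE 0.13, adjusted p = 8e-06). SDHB, the iron-sulphur subunit of succinate dehydrogenase, rose 2.99-fold (log2 change 1.58, SE 0.16, adjusted p = 2.5e-05), NDUFC1 of complex I rose 2.93-fold (log2 change 1.55, SE 0.17, adjusted p = 4.7e-05) and COX7A1, the heart and muscle form of a cytochrome c oxidase subunit, rose 2.9-fold (log2 change 1.54, SE 0.15, adjusted p = 2.4e-05). These rises were moderate and their number depended on the scaling: quantile normalization left 25 higher and 4 lower.

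Enzymes that break down amino acids rose in 9 of 21 cases and fell in 1, with a median of 0.42. The aspartate aminotransferases GOT1 and GOT2, which also shuttle electrons into mitochondria, rose 4.24-fold (log2 change 2.09, SE 0.17, adjusted p = 7e-06) and 3.5-fold (log2 change 1.81, SE 0.15, adjusted p = 8.4e-06). GOT1 read 2338, 2247, 1478, 1506 and 1617 at 94 dpc and 6205, 7843 and 9139 at 28 dpn, with a wide gap between the stages. BCKDHB of the branched-chain ketoacid dehydrogenase rose 2.34-fold (log2 change 1.22, SE 0.19, adjusted p = 0.00057). The gene that fell was BCAT1, the cytosolic branched-chain aminotransferase.

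Several gene families held members that moved in opposite directions, or of which only some passed the test. These families were picked after their values were seen, so no test is given of the contrast between their members. PFKL, the liver phosphofructokinase, read 1318, 1209.9, 1060.5, 1037 and 772 before and 281, 368 and 429.7 after birth and fell 2.83-fold (log2 change -1.50, SE 0.18, adjusted p = 7.3e-05), while PFKM rose. BCAT1 read 444, 309, 275, 479 and 451 and 21.5, 75.3 and 145 and fell 4.62-fold (log2 change -2.21, SE 0.34, adjusted p = 0.00044). Its mitochondrial relative BCAT2 rose 1.78-fold (log2 change 0.83, SE 0.26, adjusted p = 0.0311), a call lost on leaving out any of 6 single arrays (94 dpc replicates 3, 4 and 5, 28 dpn replicates 2, 3 and 6, adjusted p between 0.052 and 0.0723). UCP2, the uncoupling protein of many non-muscle tissues, read 353, 122, 216, 158 and 263 at 94 dpc and 9.03, 26.0 and 138 at 28 dpn. It fell 4.06-fold (log2 change -2.02, SE 0.47, adjusted p = 0.0063) with overlap, and its call was lost without the 3 arrays of high Dap ratio (adjusted p = 0.0835).

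Single subunits of cytochrome c oxidase, which are different proteins and not relatives of one another, also went both ways. COX6A1, the subunit VIa of liver and most tissues, had fetal signals of 7953, 8337, 6177, 7518 and 8239 and piglet signals of 3666, 3955 and 4369, a fall of 1.91-fold (log2 change -0.94, SE 0.14, adjusted p = 0.00029). COX8H, the heart and muscle form of subunit VIII, rose 2.64-fold (log2 change 1.40, SE 0.17, adjusted p = 8.9e-05), and COX7A1, of subunit VIIa, is given above. LDHA, the lactate dehydrogenase subunit of fast muscle, read 11450.1, 13171, 11898, 14046 and 11337 and 56277, 70244 and 90079 and rose 5.67-fold (log2 change 2.50, SE 0.16, adjusted p = 9.4e-07). LDHB, the subunit of heart and oxidative tissue, did not pass the test (log2 change 0.29, SE 0.13, adjusted p = 0.124). Its value moved with the scaling, to -0.32 after quantile normalization (adjusted p = 0.0705) and 0.49 after median centring (adjusted p = 0.0252). The enolase of muscle, ENO3, rose 2.24-fold (log2 change 1.17, SE 0.18, adjusted p = 0.00041).

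Of the glycolysis list, these genes of glucose uptake were picked after their values were seen. SLC2A1, the transporter of fetal tissue and erythrocytes, read 559, 403, 341, 401 and 403 at 94 dpc and 74.3, 161 and 191 at 28 dpn, a fall of 2.74-fold (log2 change -1.45, SE 0.23, adjusted p = 0.00051). SLC2A3, a high-affinity transporter, fell 2.34-fold (log2 change -1.22, SE 0.27, adjusted p = 0.0049), and HK1, a hexokinase that traps glucose in the cell, fell 1.77-fold (log2 change -0.82, SE 0.17, adjusted p = 0.0031); both lost their calls without the 3 arrays of high Dap ratio, as given above. SLC2A4, the insulin-regulated transporter of muscle and fat, did not pass the test. It read 75.9, 155, 92.8, 132 and 112 before and 74.7, 145 and 326 after birth (log2 change 0.41, SE 0.30, adjusted p = 0.339), and another probe set gave -0.17.

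**Figure D4:**
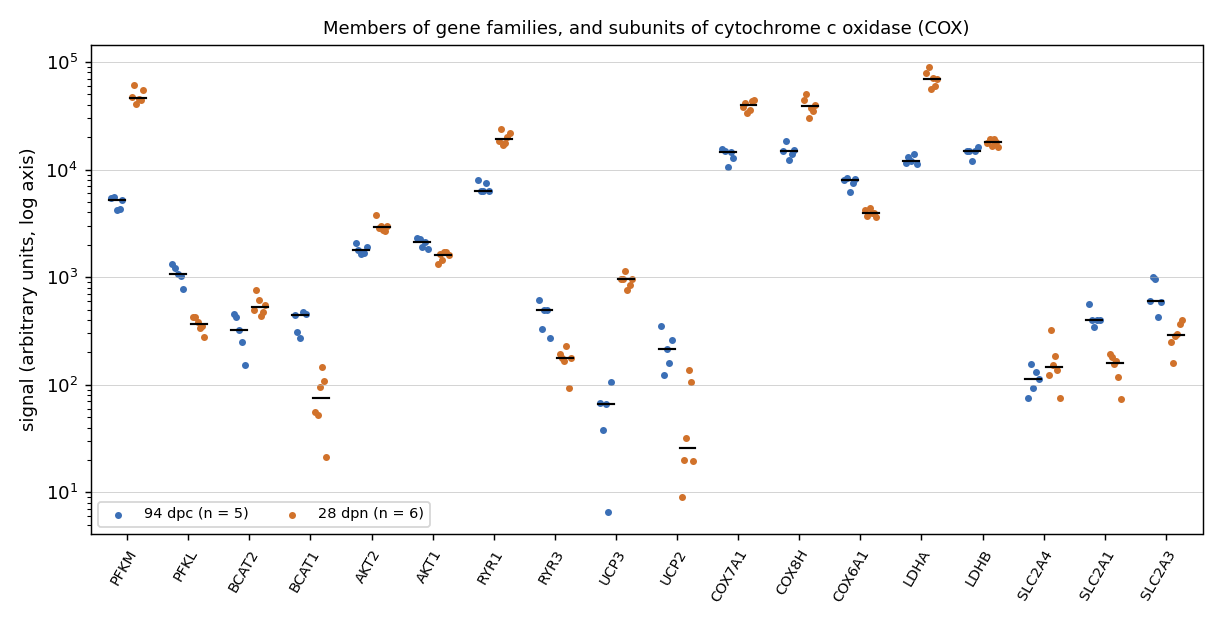
Signals of single samples on a log axis (blue, 94 dpc, n = 5; orange, 28 dpn, n = 6; black lines, medians) for relatives within gene families and for 3 different subunits of cytochrome c oxidase. PFKM, UCP3 and RYR1 lie higher at 28 dpn and their relatives PFKL, UCP2 and RYR3 lower; of the oxidase subunits, COX7A1 and COX8H lie higher and COX6A1 lower.

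Imprinted genes mostly fell. Of 18 measured, 10 were lower and 4 higher, with a median of -0.75, and without the 3 arrays of high Dap ratio 6 were lower and 2 higher. MEG3, a maternally expressed noncoding RNA, read 8333, 6698, 7033, 10889.9 and 5418 at 94 dpc and 410.4, 573 and 976 at 28 dpn. It fell 11.9-fold (log2 change -3.57, SE 0.24, adjusted p = 1.6e-06). PLAGL1, a zinc finger regulator of a network of imprinted growth genes, fell 8.82-fold (log2 change -3.14, SE 0.19, adjusted p = 7.1e-07), and PHLDA2, which restrains placental growth, fell 5.14-fold (log2 change -2.36, SE 0.31, adjusted p = 0.00016). GRB10, an adaptor that dampens insulin and IGF signalling, rose against the direction of the majority: it read 1679.8, 1053, 1223, 901 and 887 before and 3435, 4378 and 6850.1 after birth, a rise of 4-fold (log2 change 2.00, SE 0.21, adjusted p = 4.3e-05). PON3, a lactonase of plasma lipoproteins that lies near PEG10 in the imprinted cluster, rose 3.47-fold (log2 change 1.80, SE 0.45, adjusted p = 0.010) from dim fetal signals (4.92, 59.8, 12.0, 1.56 and 9.14), and fetal replicate 2 overlapped the piglet samples.

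Of 7 measured oncofetal genes, which are active in the fetus and again in tumours, 5 fell and 0 rose, with a median of -3.12. PEG10, PLAGL1 and AFP also belong to other groups here. PTN, a heparin-binding growth factor of developing tissue, read 839, 793, 1313, 1009 and 1309.9 at 94 dpc and 36.3, 70.1 and 211 at 28 dpn. It fell 11.4-fold (log2 change -3.51, SE 0.32, adjusted p = 1.4e-05), although a dimmer probe set gave 0.25 (adjusted p = 0.448). Its relative midkine (MDK) read 3783, 2703, 3074, 3194 and 3899.6 and 465, 910.1 and 1376 and fell 3.68-fold (log2 change -1.88, SE 0.25, adjusted p = 0.00017), without overlap.

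In the IGF system, 3 of 15 genes fell and 1 rose, with a median of -0.26, against backgrounds of 21.9% and 17.8%, and 0 fell without the 3 arrays of high Dap ratio. IGF2, the main fetal growth factor, read 11240.2, 8993, 11341, 12087 and 8228 before and 936, 2912 and 5473 after birth. It fell 4.01-fold (log2 change -2.00, SE 0.40, adjusted p = 0.0024) without overlap, with an adjusted p of 0.0633 without the 3 arrays of high Dap ratio. Its dimmer probe sets did not all follow: 3 had changes of 0.72, 0.89 and 0.25 in the other direction, of which the second passed the test (adjusted p = 0.0446). IGFBP2, a binding protein abundant in fetal life, read 486, 574, 774, 495 and 429.8 and 22.3, 109 and 261 and fell 5.16-fold (log2 change -2.37, SE 0.47, adjusted p = 0.0026). Its adjusted p was 0.0795 without the 3 arrays of high Dap ratio, and without 28 dpn replicates 1 and 2 its log2 change was -1.75. IGF1, which carries growth after birth, did not pass the test: its fetal samples read 303, 183, 322, 308 and 235, its piglet samples 200.4, 228 and 257 (log2 change -0.22, SE 0.17, adjusted p = 0.353; 0.023 after quantile normalization).

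Of the kinases that carry insulin and IGF signals, AKT2, the form of insulin-responsive tissue, rose 1.64-fold (log2 change 0.72, SE 0.14, adjusted p = 0.0024). AKT1 fell 1.32-fold (log2 change -0.41, SE 0.14, adjusted p = 0.0431), and that call was lost on leaving out any single array other than 28 dpn replicate 5 or 94 dpc replicates 3 and 5, with adjusted p up to 0.101. The mean of all AKT1 probe sets gave 0.025.

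**Figure D5:**
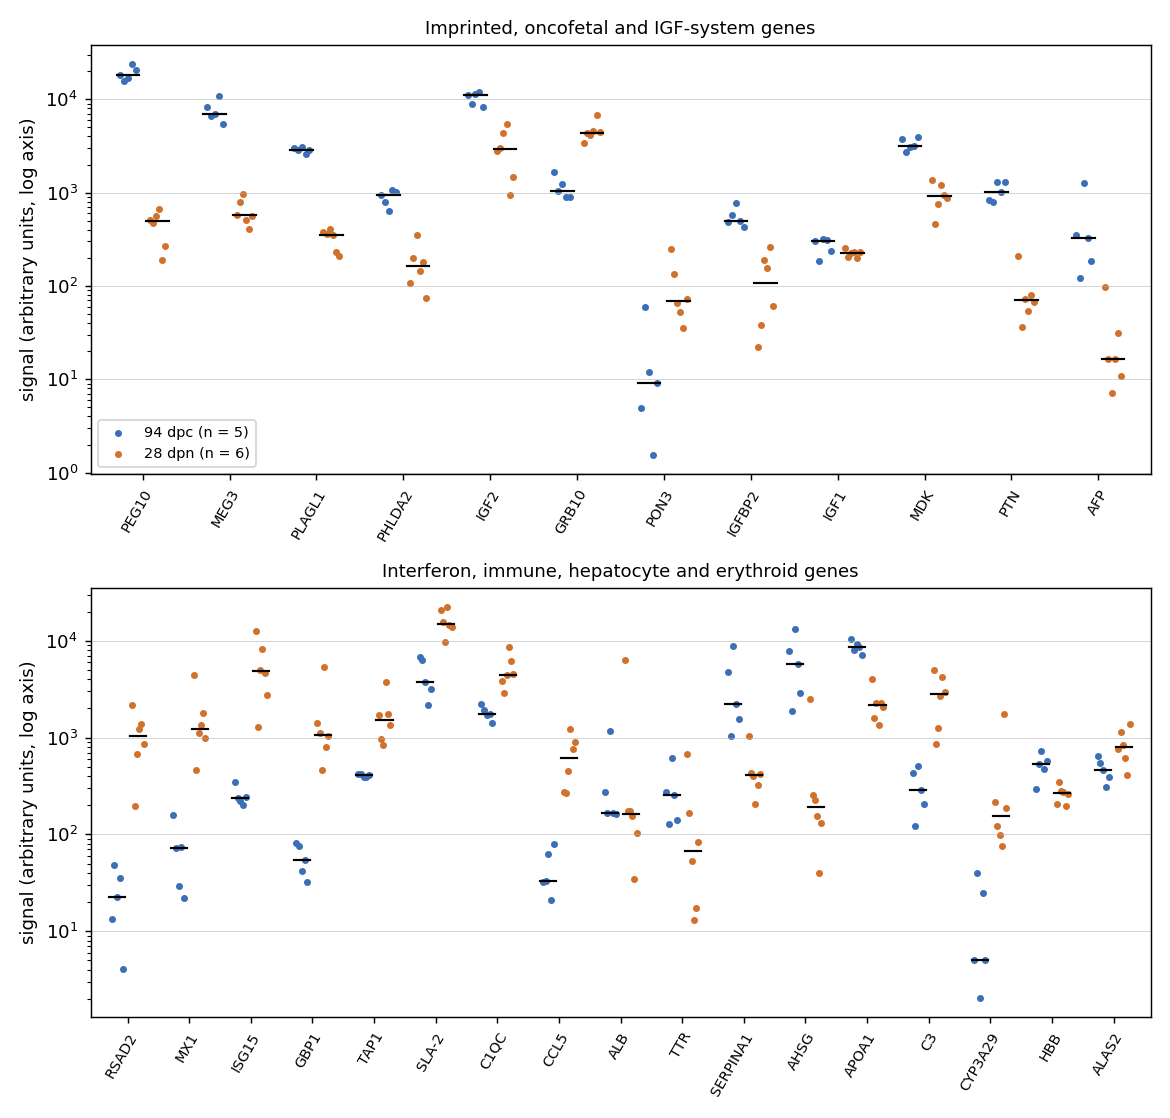
Signals of single samples on a log axis (blue, 94 dpc, n = 5; orange, 28 dpn, n = 6; black lines, medians). The upper panel shows PEG10, MEG3 and PLAGL1 lower in all piglet samples and GRB10 higher; in the lower panel 28 dpn replicate 1 is the highest piglet sample for ALB (6399.8), TTR and AHSG.

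Cell division genes were lower. Of 52 measured genes of the cell cycle, 35 fell and 0 rose, with a median of -0.96. The count was smaller under other settings: 21 fell and 1 rose after median centring, 23 fell after quantile normalization and 14 fell without the 3 arrays of high Dap ratio. CCND2, a cyclin of the G1 phase, read 2832, 2363, 3486, 3589.5 and 2837 at 94 dpc and 679, 719 and 812 at 28 dpn. It fell 4.02-fold (log2 change -2.01, SE 0.15, adjusted p = 2.8e-06). MYBL2, a transcription factor of dividing cells, read 507, 575, 609, 601 and 599 and 22.0, 149 and 186, and fell 4.54-fold (log2 change -2.18, SE 0.37, adjusted p = 0.00081). The kinetochore protein CENPF fell 4.76-fold (log2 change -2.25, SE 0.41, adjusted p = 0.0015); its highest piglet signal, 185 in replicate 1, was close to the lowest fetal signal, 211. CDC20, an activator of the anaphase ligase, fell 3.38-fold (log2 change -1.76, SE 0.47, adjusted p = 0.0137), and its call was lost without the 3 arrays of high Dap ratio (adjusted p = 0.186). Of the 4 measured subunits of the MCM replicative helicase, 2 fell.

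Chromatin genes fell in 10 of 25 cases and rose in 0, with a median of -0.41, and 6 fell without the 3 arrays of high Dap ratio. HMGB2, a DNA-bending protein of dividing cells, read 2476, 2554, 3222, 2931 and 3095 before and 619, 782 and 1122 after birth, a fall of 3.42-fold (log2 change -1.77, SE 0.19, adjusted p = 3.7e-05). The nucleosome-binding protein HMGN1 fell 2.7-fold (log2 change -1.44, SE 0.18, adjusted p = 0.00011). DNMT1, which copies DNA methylation after replication, fell 2.61-fold (log2 change -1.39, SE 0.18, adjusted p = 0.00014), while a dimmer probe set gave 0.64 (adjusted p = 0.32). EZH2, the methylase of Polycomb, fell 2.41-fold (log2 change -1.27, SE 0.34, adjusted p = 0.0132) with overlap, and its call was lost without the arrays of high Dap ratio or high ALB (adjusted p = 0.16 and 0.0582).

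Connective tissue genes leaned to one side: of 44 collagens and matrix genes, 39 fell and 1 rose, with a median of -1.25. After median centring 32 fell and 1 rose, and without the 3 arrays of high Dap ratio 28 fell and 0 rose. POSTN, an adhesion protein of developing connective tissue, read 7520.4, 10446, 17146, 10588 and 13608 at 94 dpc and 704, 913 and 2344 at 28 dpn. It fell 11.1-fold (log2 change -3.47, SE 0.31, adjusted p = 1.1e-05). The proteoglycan VCAN fell 7.65-fold (log2 change -2.93, SE 0.28, adjusted p = 1.7e-05), and the small proteoglycan ASPN, at 2250.4, 6995, 9519, 5522 and 6807 before birth and 830.1, 1033 and 1257 after it, fell 5.32-fold (log2 change -2.41, SE 0.31, adjusted p = 0.00013). SPP1 (osteopontin) fell 5.7-fold (log2 change -2.51, SE 0.48, adjusted p = 0.0021) with overlap, since piglet replicate 1 read 2628 and the other piglet samples 311.2 to 667.6.

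Among collagen chains, 9 of 11 fell and 1 rose, and 4 of 4 laminins and nidogens of basement membranes fell. COL1A2, a chain of type I collagen, read 2417, 4769, 5104, 2675 and 2156 and 463, 730.1 and 1596, a fall of 3.97-fold (log2 change -1.99, SE 0.33, adjusted p = 0.00083). COL3A1, at a dim probe set, did not pass the test (log2 change -0.16, adjusted p = 0.781). COL8A1, the one chain that rose (log2 change 0.98, SE 0.34, adjusted p = 0.0458), lost its call on leaving out 28 dpn replicate 2, 3, 4 or 6 or 94 dpc replicate 2, 3 or 4 in turn (adjusted p up to 0.115) and had probe sets at -0.030 and -0.0049. SPARC, which binds collagen, did not pass the test at its bright probe set: fetal samples read 37635 to 43049.5 and piglet samples 36246 to 56838 (log2 change 0.10, SE 0.15, adjusted p = 0.676). A dimmer SPARC probe set fell (-1.56, adjusted p = 0.0076).

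Endothelial genes fell in 9 of 25 cases and rose in 1, with a median of -0.30. After median centring 5 fell, and without the 3 arrays of high Dap ratio 2. PECAM1 and CDH5, adhesion proteins that define the endothelium, fell 1.54-fold (log2 change -0.62, SE 0.16, adjusted p = 0.0103) and 1.81-fold (log2 change -0.86, SE 0.21, adjusted p = 0.0091). Both calls were lost without the 3 arrays of high Dap ratio (adjusted p = 0.213 and 0.211), and that of PECAM1 after median centring (adjusted p = 0.0797). PDPN, a glycoprotein of lymphatic vessels, fell 2.53-fold (log2 change -1.34, SE 0.15, adjusted p = 5.6e-05), at 2827, 2581, 2060.3, 2080.4 and 1890.0 before and 808, 872 and 1014 after birth. The receptor TIE1 fell 1.92-fold (log2 change -0.94, SE 0.27, adjusted p = 0.0184), a call lost under both other scalings (adjusted p = 0.0597 and 0.0803) and without the arrays of high ALB or high Dap ratio (adjusted p = 0.0507 and 0.349).

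VEGFA, the growth factor that makes vessels sprout, rose at its brightest probe set, 2.69-fold (log2 change 1.43, SE 0.17, adjusted p = 7.8e-05), from 1723, 2087, 2584, 2567 and 2908 to a lowest, median and highest of 5079.8, 6403 and 7278. Other VEGFA probe sets gave -0.50 and -0.018, and the mean of all had an adjusted p of 0.228. Of 12 genes of smooth muscle and pericytes, 6 fell and 2 rose, with 2 lower without the 3 arrays of high Dap ratio. MCAM, an adhesion protein of pericytes, fell 2.81-fold (log2 change -1.49, SE 0.20, adjusted p = 0.00017), and CALD1 (caldesmon) fell 1.8-fold (log2 change -0.84, SE 0.22, adjusted p = 0.0119). CNN1 (calponin) rose 2.72-fold (log2 change 1.44, SE 0.29, adjusted p = 0.0025), with overlap. The calls of CALD1 and CNN1 were lost without those 3 arrays (adjusted p = 0.11 and 0.0674).

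Interferon-stimulated genes, which cells switch on after contact with microbes or interferon, rose in 23 of 27 cases and fell in 0, with a median of 1.85. With the 3 arrays of high Dap ratio left out, 17 rose. RSAD2, an antiviral enzyme, read 13.2, 47.9, 22.3, 35.7 and 4.04 at 94 dpc and 196, 1044 and 2159.6 at 28 dpn, and rose 23.7-fold (log2 change 4.56, SE 0.52, adjusted p = 6.1e-05). The antiviral GTPase MX1 read 157, 71.5, 29.2, 73.6 and 22.2 and 461, 1228 and 4398, a rise of 17.9-fold (log2 change 4.16, SE 0.52, adjusted p = 0.00012). ISG15, a ubiquitin-like protein, read 349.8, 235, 221, 202 and 241 and 1284, 4872 and 12766, a rise of 17.5-fold (log2 change 4.13, SE 0.48, adjusted p = 6.8e-05). In each of the 3 the piglet samples spread over a wide range. These 3 were named from genes picked for no overlap of the stages. GBP1, a guanylate-binding GTPase, rose 17.4-fold (log2 change 4.12, SE 0.49, adjusted p = 8.4e-05).

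The piglets differed among themselves in these genes. The summed signal of the 27 genes ran from 5250.2 to 6594.2 over the fetal samples and from 12262.3 to 44160.8 over the piglet samples. It was highest in 28 dpn replicates 4 (44160.8) and 1 (43295.5) and lowest in replicate 2. The other piglet samples read 19642.4, 27821.7 and 19864.2. Each piglet was thus above the highest fetal sum.

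Antigen presentation genes rose in 11 of 21 cases and fell in 1, with a median of 0.93. Of 12 swine leukocyte antigens (SLA), the major histocompatibility genes of the pig, 7 rose and 0 fell. SLA-2 read 6762, 6353, 3796, 2156 and 3142 before birth and 9665, 15052 and 22156 after it, a rise of 3.81-fold (log2 change 1.93, SE 0.32, adjusted p = 0.00068). SLA-3 rose 4.05-fold (log2 change 2.02, SE 0.40, adjusted p = 0.0024) and SLA-6 rose 3.44-fold (log2 change 1.78, SE 0.29, adjusted p = 0.00073); a dimmer SLA-6 probe set gave -0.094. Without the 3 arrays of high Dap ratio the changes of SLA-2 and SLA-3 were 2.57 and 2.89. Class I SLA genes are alike in sequence, and whether probe sets tell them apart was not tested. The peptide transporter TAP1 read 416, 416, 392, 389 and 413 and 837, 1529.7 and 3732, a rise of 3.64-fold (log2 change 1.87, SE 0.32, adjusted p = 0.0009).

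Myeloid markers rose in 10 of 23 cases and fell in 0, with a median of 0.79, and 5 rose without the 3 arrays of high Dap ratio. The list's summed signal ran from 6024.3 to 7756.6 in fetal and from 8531.7 to 22424.8 in piglet samples. C1QC, a complement chain made by macrophages, read 2222, 1949, 1695, 1771 and 1405 and 2871, 4453 and 8653 and rose 2.65-fold (log2 change 1.41, SE 0.26, adjusted p = 0.0014). The integrin ITGAM rose 2.83-fold (log2 change 1.50, SE 0.19, adjusted p = 0.00013) and the scavenger receptor MARCO 3.72-fold (log2 change 1.90, SE 0.40, adjusted p = 0.0035), both from dim fetal signals of at most 18.2 and 57.4. The costimulator CD86 rose 2.83-fold (log2 change 1.50, SE 0.37, adjusted p = 0.0084), a call lost without those 3 arrays (adjusted p = 0.119). CD163, which defines tissue macrophages, did not pass the test (log2 change 0.12, SE 0.23, adjusted p = 0.73): 251 to 394 before and 211 to 515 after birth.

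Lymphoid markers rose in 5 of 21 cases and fell in 1, with a median of 0.72, against backgrounds of 17.8% and 21.9%. Without 28 dpn replicate 3 the rises were 9, after median centring 9, without the 2 arrays of high spike-in signal 8, and without the 3 arrays of high Dap ratio 2. The chemokine CCL5 read 32.6, 32.8, 63.1, 21.2 and 80.2 and 266, 609 and 1223 and rose 9.77-fold (log2 change 3.29, SE 0.42, adjusted p = 0.00012). JCHAIN, which joins secreted antibodies, rose 2.37-fold (log2 change 1.24, SE 0.23, adjusted p = 0.0018), and the cytokine receptor chain IL2RG rose 3.07-fold (log2 change 1.62, SE 0.41, adjusted p = 0.0107). CD8A, of cytotoxic T cells, rose 3.09-fold (log2 change 1.63, SE 0.48, adjusted p = 0.0214) with overlap, a call lost without 94 dpc replicate 1 or 4 (adjusted p = 0.0507 and 0.0529). The calls of CD8A and IL2RG were lost without the 3 arrays of high Dap ratio although their log2 changes were then larger, 2.04 (adjusted p = 0.0745) and 1.73 (adjusted p = 0.0599). The call of IL2RG was also lost without the arrays of high ALB (adjusted p = 0.0504). CD3E, which defines T cells, did not pass the test: 14.3, 13.8, 58.8, 60.4 and 29.7 at 94 dpc and 13.9, 83.2 and 117 at 28 dpn (log2 change 0.74, SE 0.41, adjusted p = 0.195), but did without 28 dpn replicate 3 (adjusted p = 0.0391). The chemokine receptor CXCR4 was the lymphoid gene that fell, 1.79-fold (log2 change -0.84, SE 0.24, adjusted p = 0.0178), and lost its call after median centring and without the arrays of high Dap ratio, ALB or spike-in signal (adjusted p = 0.0694, 0.314, 0.0612 and 0.0504).

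Hepatocyte genes gave no majority in either direction with all arrays: 4 of 42 rose and 5 fell, both below the background, with a median of -0.55. Their summed signal was 33427.9, 16908.8, 50606.6, 24641.4 and 18017.5 in the fetal samples. It was 53810.0 in 28 dpn replicate 1 and 7520.4 to 12426.9 in the other 5 piglet samples. By this sum, replicate 1 stood above every other sample, and the other piglets below every fetal sample. The same order held for the list's mean log2 signal (6.24 to 6.83 in those piglets, 6.97 to 8.31 in fetal samples). By the list's median percentile these piglets overlapped the fetal samples (23.4 to 43.4 against 38.6 to 60.7). Without 28 dpn replicate 1, 19 of the 42 fell, and 16 fell without that array and 94 dpc replicate 3. The part of these 2 arrays in single genes of the list is given below.

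ALB read 272, 168, 1159, 165 and 163 at 94 dpc and 34.5, 164 and 6399.8 at 28 dpn and did not pass the test (log2 change -0.22, SE 1.03, adjusted p = 0.902), with changes of 0.29 without 94 dpc replicate 3 and -1.15 without 28 dpn replicate 1. Transthyretin (TTR), a carrier of thyroid hormone, read 271, 127, 616, 256 and 139.6 and 13.1, 67.6 and 678. It did not pass the test with all arrays (log2 change -1.40, SE 0.74, adjusted p = 0.179) and passed without 28 dpn replicate 1 (log2 change -1.97, adjusted p = 0.0187). APOA1, the main protein of high-density lipoprotein, read 10556, 8042, 9359, 8721 and 7128 and 1338, 2165 and 4030.4, and fell 4.06-fold (log2 change -2.02, SE 0.25, adjusted p = 0.00011) without overlap.

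Some plasma protein genes fell. AHSG (fetuin), the main fetal serum glycoprotein, read 7840.3, 1895, 13295, 5802 and 2905 before and 39.8, 192 and 2493 after birth, a fall of 20.5-fold (log2 change -4.36, SE 0.82, adjusted p = 0.0017). Its log2 change was -5.03 without 28 dpn replicate 1, whose signal was the highest of the piglets and overlapped the fetal range. Alpha-fetoprotein (AFP), the fetal counterpart of albumin, read 349.8, 123, 1253, 326 and 186 and 7.16, 16.6 and 97.9. It fell 8.67-fold (log2 change -3.12, SE 0.54, adjusted p = 0.0010), and it was named from genes picked for no overlap. SERPINA1 (alpha-1 antitrypsin) read 4730.4, 1041, 8904, 2249 and 1551 and 206, 408 and 1048, a fall of 6.41-fold (log2 change -2.68, SE 0.53, adjusted p = 0.0024) with overlap. In all of AHSG, AFP and SERPINA1 the highest fetal sample was replicate 3 and the highest piglet sample replicate 1.

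Other hepatocyte-list genes rose. Complement C3 read 434, 122, 512, 287 and 207 at 94 dpc and 868, 2806 and 5048 at 28 dpn, a rise of 8.16-fold (log2 change 3.03, SE 0.48, adjusted p = 0.00058). CYP3A29, a drug-metabolising enzyme of the pig, rose 7.88-fold (log2 change 2.98, SE 0.66, adjusted p = 0.0050) from fetal signals of at most 39.9. Its log2 change was 2.38 without 28 dpn replicate 5, which read 1769. Its call was lost without the 3 arrays of high Dap ratio (adjusted p = 0.0786). C3 and C4BPA are plasma proteins that other cells also make.

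Of 14 erythroid genes, 3 rose (BPGM, EPB41 and FECH) and 2 fell, against backgrounds of 17.8% and 21.9%. Under either other scaling 5 rose and 1 fell. Beta globin (HBB) read 297, 533, 729, 473 and 576 at 94 dpc and 196, 268 and 346 at 28 dpn, a fall of 1.9-fold (log2 change -0.93, SE 0.23, adjusted p = 0.0083) with overlap. EPB41 of the red cell membrane skeleton and FECH, the last enzyme of haem synthesis, rose 1.79-fold (log2 change 0.84, SE 0.20, adjusted p = 0.0071) and 1.48-fold (log2 change 0.56, SE 0.15, adjusted p = 0.0138), and both lost their calls without the 3 arrays of high Dap ratio (adjusted p = 0.0535 and 0.169). ALAS2, the erythroid first enzyme of haem synthesis, did not pass the test on the deposited scale (log2 change 0.78, SE 0.30, adjusted p = 0.0692) and passed after either other scaling (adjusted p = 0.027 and 0.0247). FABP1, a fatty acid carrier of hepatocytes, read 128, 77.0, 256, 136 and 72.3 and 2.75, 29.0 and 196 and did not pass it either (log2 change -1.48, SE 0.54, adjusted p = 0.0578), but did without 28 dpn replicate 1 (adjusted p = 0.0044).

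Of 19 genes that answer to glucocorticoids, 5 rose (26.3%) and 2 fell (10.5%), with a median of 0.048, against backgrounds of 17.8% and 21.9%. With so few genes, these counts are not read as a property of the group. The falls were 0 without 94 dpc replicate 3, without the 3 arrays of high Dap ratio and after median centring, 1 without 94 dpc replicate 1 or 5 and after quantile normalization, and 3 without 28 dpn replicate 1 or 4, while 5 rose in each of these settings. FKBP5, a co-chaperone of the glucocorticoid receptor, read 74.5, 119, 107, 83.2 and 78.1 before and 452, 622 and 1141 after birth and rose 6.14-fold (log2 change 2.62, SE 0.24, adjusted p = 1.2e-05). HSD11B1, the enzyme that reactivates cortisol, rose 3.13-fold (log2 change 1.65, SE 0.17, adjusted p = 3.2e-05). TSC22D3, a leucine zipper protein induced by cortisol, rose 2.34-fold (log2 change 1.23, SE 0.19, adjusted p = 0.00046), although a dimmer probe set gave -0.85 and the mean of its probe sets had an adjusted p of 0.625. The receptor itself, NR3C1, fell 2.08-fold (log2 change -1.05, SE 0.30, adjusted p = 0.0196) without overlap. That call was lost without 94 dpc replicate 3 (adjusted p = 0.0535), under both other scalings (adjusted p = 0.0588 and 0.0722) and without the 3 arrays of high Dap ratio (adjusted p = 0.383), and another of its probe sets gave 0.11.

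Antioxidant and metal-handling genes rose in 19 of 37 cases and fell in 6, with a median of 0.43, and 10 rose without the 3 arrays of high Dap ratio. NQO1, a quinone reductase, read 278, 313, 333, 193 and 289.9 and 1501, 2465 and 5243, a rise of 8.96-fold (log2 change 3.16, SE 0.28, adjusted p = 1.2e-05). SOD2, the superoxide dismutase of mitochondria, read 958, 1577, 1167, 1139.8 and 1322 and 7355, 8668 and 13421, a rise of 7.55-fold (log2 change 2.92, SE 0.20, adjusted p = 1.6e-06). Both were separated between the stages. The secreted dismutase SOD3 rose 4.31-fold (log2 change 2.11, SE 0.40, adjusted p = 0.0018). The peroxidase GPX2 rose 5.5-fold (log2 change 2.46, SE 0.69, adjusted p = 0.0181) with overlap; without 28 dpn replicates 1 and 2 its change was 1.48, and its call was lost without the 3 arrays of high Dap ratio (adjusted p = 0.101).

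Immediate early genes, which respond to stimuli within minutes, were lower: 11 of 22 fell and 2 rose, with a median of -0.84. When the 3 arrays of high Dap ratio were left out, 2 fell and 0 rose. The 2 rises became 0 without any 1 of 28 dpn replicates 3, 4 and 5 and 94 dpc replicates 2, 3 and 5, and 1 without any other single array. The transcription factor EGR1 read 2563, 2572, 2733, 1674 and 1684 at 94 dpc and 205, 385 and 1123 at 28 dpn, a fall of 5-fold (log2 change -2.32, SE 0.35, adjusted p = 0.00039). FOS fell 4.13-fold (log2 change -2.05, SE 0.42, adjusted p = 0.0032) with overlap, its relative FOSL2 fell 3.4-fold (log2 change -1.76, SE 0.42, adjusted p = 0.0071), and SOCS3, an inhibitor of cytokine signalling, fell 3.43-fold (log2 change -1.78, SE 0.30, adjusted p = 0.00087). SOCS3 was dim: it read 16.1 in fetal replicate 4 and 81.3 to 99.6 in the other fetal samples, whose array medians were 148.9 to 168.8. FOS, FOSL2 and SOCS3 lost their calls without the 3 arrays of high Dap ratio (adjusted p = 0.133, 0.123 and 0.0574). In FOS, the 3 arrays left out read 2355, 2487 and 2472 and the fetal arrays that remained 939 and 1657.

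Ribosomal proteins were mostly not called on the deposited scale: 5 of 62 fell and 2 rose, below the background, with a median of -0.063. Quantile normalization instead called 38 lower and 0 higher, and median centring called 2 lower and 6 higher, so the group has no direction that holds under every scaling. Without 28 dpn replicate 4, or 94 dpc replicate 2 or 5, 3 fell. RPL3 read 23412, 24334, 23204, 23228 and 26489 before and 7963, 9549.5 and 11987 after birth, and fell 2.46-fold (log2 change -1.30, SE 0.14, adjusted p = 5e-05). RPL37 fell 1.98-fold (log2 change -0.98, SE 0.19, adjusted p = 0.0019) and RPS24 1.48-fold (log2 change -0.56, SE 0.14, adjusted p = 0.0086), while the damage-responsive RPS27L rose 1.59-fold (log2 change 0.67, SE 0.16, adjusted p = 0.0070). RPS24 lost its call after median centring (adjusted p = 0.0658), RPS27L after quantile normalization (adjusted p = 0.101) and both without the 3 arrays of high Dap ratio (adjusted p = 0.0524 and 0.196).

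Proteasome genes rose in 20 of 37 cases and fell in 1, with a median of 0.58. Quantile normalization gave 17 higher and 5 lower, and 8 rose without the 3 arrays of high Dap ratio. PSMA3 of the core particle read 2270.2, 2971, 3561, 3588 and 3905 and 7247, 7819.8 and 8473, a rise of 2.44-fold (log2 change 1.29, SE 0.16, adjusted p = 0.00011). The activators PSME3 and PSME4 rose 2.03-fold (log2 change 1.02, SE 0.13, adjusted p = 0.00013) and 1.98-fold (log2 change 0.98, SE 0.18, adjusted p = 0.0012), and PSMD11 of the regulatory cap rose 1.99-fold (log2 change 0.99, SE 0.16, adjusted p = 0.00052).

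The remaining lists were followed as counts only, to be read beside the 17.8% of all genes that rose and the 21.9% that fell. Of 37 translation factors, 6 rose and 5 fell, with 15 rises and 5 falls after median centring and 3 rises and 9 falls after quantile normalization. Likewise, 5 of 12 genes of ubiquitin ligation and atrophy rose and 2 fell; without single arrays the rises went down to 2 (without 94 dpc replicate 5). Among inhibitors of the cell cycle 3 of 14 rose and 2 fell, and among chaperones 11 of 38 rose and 6 fell. Chaperones gave 10 rises and 11 falls after quantile normalization and 12 rises and 1 fall after median centring, and their falls were 3 without 28 dpn replicate 6, 94 dpc replicate 2 or 94 dpc replicate 4. Of genes of lipid storage, 5 of 27 rose and 1 fell, and the defining fat cell gene ADIPOQ did not pass the test (log2 change 0.34, SE 0.35, adjusted p = 0.506). Of genes of nerve and Schwann cells 1 of 8 rose and 2 fell, of circadian genes 1 of 7 rose and 0 fell, and of the nerve contact 0 of 2 rose and 2 fell.

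Values at 188 dpn, the oldest stage of the series (n = 6), are set beside the others with no test. The Dap ratio was 0.358 to 0.387 in the 188 dpn arrays, against 0.0703 to 0.104 in the 28 dpn arrays. Age cannot be told apart here from what this ratio reflects, and its part in the values was not tested. MYH2 read 7636 ± 5411 at 94 dpc, 76921 ± 17129.6 at 28 dpn and 96051 ± 11642 at 188 dpn (mean ± SD, n = 5, 6 and 6). PFKM read 4947 ± 625, 48949.7 ± 7344 and 62582 ± 5337. IGF2 read 10378 ± 1668, 3002 ± 1704 and 236 ± 64.7. These means of MYH2 and PFKM were higher, and that of IGF2 lower, at 188 dpn than at 28 dpn, and whether they differ was not tested. PEG10 read 19011 ± 3246, 445 ± 182 and 126 ± 41.2. POSTN read 11862 ± 3655, 1116 ± 615 and 162 ± 65.8. ISG15 read 249.6 ± 58.0, 5790.1 ± 4139 and 685 ± 721.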

How the data were processed

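Signals of 23999 probe sets on 11 porcine Affymetrix arrays were compared. The authors deposited intensities on a linear scale, with 1 value for every probe set on every array. Per the submitters' processing notes GCOS 1.1.1 was used, in a role they leave unsaid. How probes were summarised and corrected for background is not given in the sources used here. Per the labels' protocols, biotin-labelled cRNA was prepared from 0.5 ug of total RNA that had been treated with DNase. The 2% trimmed mean was 500.1 to 500.2 on every array, so scaling to a common target was assumed. The median signal separated the stages, at 148.9 to 168.8 in the 94 dpc arrays and 128.0 to 148.2 in the 28 dpn arrays. Precision is limited by the number of arrays. No detection calls were used, so no transcript is called absent.

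From the deposited intensities, log2(signal + 16) was computed without further normalization, and the 124 control probe sets were left out. The 11 arrays entered a model of 2 stage means in limma 3.58.1 in R 4.3.3 (lmFit and eBayes, two-sided, Benjamini-Hochberg over all probe sets, called at an adjusted p under 0.05). On simulated data of 23999 probe sets, the fit recovered 36 of 100 planted log2 changes of 1 and 81 of 100 of 2, with 8 false calls. Far fewer changes were planted than were called in the data, so these shares do not carry over to it. A gene that did not pass the test is not shown to be unchanged. A table of probe annotation paired 10069 probe sets with 1 symbol, 198 with several and 13732 with none. A gene was read from its brightest such probe set, and 45 of 2261 genes with several had probe sets called in both directions. Tables and figures were made with Python 3.11.15, pandas 2.3.3 and matplotlib 3.10.9.

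Named genes were the 12 largest rises and falls among called genes with a symbol other than a LOC number, no overlap of samples and a mean in the higher stage above 7.33 (log2, the median of all values). At most 4 called members per described list and a fixed set (MYH2, MYH7, MYL1, MYL4, TNNT1, TNNT2, TNNT3, ACTC1, IGF1, IGF2, MDK, CKM, PDK4 and ALB) were added. Beyond these the rule provides only for uncalled exceptions, so these called genes were chosen after their values were seen: PFKL, SLC2A1, SLC2A3, HK1, BCAT2, UCP2, RYR3, COX6A1, COX8H, LDHA, ENO3, GRB10, PON3, APOA1, SERPINA1, COL1A2, COL8A1, PECAM1, CXCR4, PPARA and NR3C1. The members and the 39 gene lists were chosen with earlier results of these data known. Lists are described by counts and medians, with no test of a list. Replicates were numbered in the order of accession, which pairs no samples. Promoter motifs and protein identities were planned and are not analysed here. Alternatives were other scalings, pseudocounts of 1 and 64, a filter on dim probe sets, all 23 or 17 arrays in the fit, array weights, eBayes with its trend and robust options, averaging a gene's probe sets, each other probe set, and leaving out each array. Leaving out the 3 arrays of high Dap ratio, the 2 of high spike-in signal and the 2 of high ALB was chosen after seeing the data.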

Additional observations from a re-analysis of the deposited data

Results flagged for a closer look

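Of 344 groups of samples tested (172 named genes at 2 stages), 31 held a sample far from the others by Dixon's criterion on the signals. Its chance rate of about 1 in 20 groups holds for normally distributed values, which signals on a linear scale need not be. The number of flags is therefore not set against that rate, and genes of 1 sample are not independent. Piglet replicate 1 was the highest of its stage for many of them. Among plasma protein and hepatocyte genes it had ALB at 6399.8 (others 34.5 to 174), AHSG at 2493 (others 39.8 to 253), TTR at 678 (others 13.1 to 166), SERPINA1 at 1048 (others 206 to 426), APOA1 at 4030.4 (others 1338 to 2298), FABP1 at 196 (others 2.75 to 51.2) and AFP at 97.9 (others 7.16 to 31.2). In the same sample, MX1 at 4398 (others 461 to 1779), POSTN at 2344 (others 704 to 1032), SPP1 at 2628 (others 311 to 668), PTN at 211 (others 36.3 to 79.5), CENPF at 185 (others 15.8 to 77.7) and AKT2 at 3768 (others 2692 to 3014) were also highest. This array belongs to the 2 of high spike-in signal, and the part of that in the values was not tested.

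Fetal replicate 3 was highest for ALB at 1159 (others 163 to 272), AFP at 1253 (others 123 to 349.8) and GPX2 at 389.8 (others 107 to 161), and lowest for CD86 at 9.76 (others 18.5 to 21.9). Fetal replicate 2 was highest for MYH2 at 16974 (others 3208 to 6925), PON3 at 59.8 (others 1.56 to 12.0) and MARCO at 57.4 (others 5.26 to 10.3). Fetal replicate 1 was highest for SLC2A1 at 559 (others 341 to 403) and ISG15 at 349.8 (others 202 to 241), and fetal replicate 4 lowest for SOCS3 at 16.1 (others 81.3 to 99.6). Piglet replicate 4 was highest for GBP1 at 5351 (others 466 to 1408), GNLY at 3049.9 (others 472 to 1374) and TAP1 at 3732 (others 837 to 1745), all genes of immune defence. Piglet replicate 3 was highest for FOS at 1355 (others 266 to 641) and EGR1 at 1123 (others 205 to 519.8), both immediate early genes, and piglet replicate 5 for CYP3A29 at 1769 (others 75.8 to 218) and GRB10 at 6850.1 (others 3435 to 4578). Piglet replicate 2 was lowest for MYBL2 at 22.0 (others 125 to 186).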

How the results depend on the processing

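Counts of calls over all probe sets and over all genes kept within 1.5 times of the reported ones under every setting tried except these. Without the 3 arrays of high Dap ratio, 1649 probe sets were higher and 2338 lower (genes: 769 and 793), where fewer samples entered by construction. After centring on the median, 2881 probe sets and 931 genes were lower; the centring itself adds a shift. Leaving out each array in turn gave 2276 to 2556 probe sets higher and 3863 to 4404 lower, and 1048 to 1189 genes higher and 1276 to 1445 lower. No paired analysis was possible because the replicate numbers only follow accession order and the dam is not in the labels. Over the named genes and settings, 3959 values kept direction and side of the threshold, 102 lost a call and 29 gained one. Many of these genes were named because they were called with large changes in the same data. The settings that leave out 1 array share all their arrays with the main fit. Kept calls are therefore no independent support, and the tally does not carry over to genes that were not named.

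Signs turned for the following, of which the cause was not tested. ALB changed to 0.24 without 28 dpn replicate 5, 0.29 without 94 dpc replicate 3 and 0.47 without the 3 arrays of high Dap ratio, and ranged from -1.15 to 0.29 over single arrays left out. Quantile normalization gave 0.023 for IGF1, -0.32 for LDHB, -0.092 for MYLPF and -0.25 for SPARC. COL3A1 gave 0.036 after centring and 0.13 without 94 dpc replicate 5 (range over single arrays left out -0.44 to 0.13), and SPARC -0.036 without the 2 arrays of high spike-in signal. The mean of all probe sets gave 0.025 for AKT1 and -0.73 for SPARC. Single dimmer probe sets gave 0.46 for AKT1, -0.043 for CD163, -0.030 and -0.0049 for COL8A1, 0.64 for DNMT1, 0.044 for IGF1, 0.72, 0.89 and 0.25 for IGF2, 0.11 for NR3C1 and 0.67 for PEG10. They gave 0.25 for PTN, -0.094 for SLA-6, -0.17 for SLC2A4, -1.56 for SPARC, -0.85 for TSC22D3, and -0.50 and -0.018 for VEGFA. Of 84 other probe sets of called named genes, 47 were called in the same direction, 23 had the same sign without a call and 14 the opposite sign.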

Other observations

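Some large changes lay outside the gene lists and were picked after their values were seen. DEFB1, an antimicrobial beta defensin, read 16.9, 8.10, 25.8, 6.24 and 9.22 at 94 dpc and 142, 213 and 582 (lowest, median, highest) at 28 dpn, and rose 9.17-fold (log2 change 3.20, SE 0.33, adjusted p = 3.2e-05); another probe set gave 0.21. GNLY, granulysin of cytotoxic lymphocytes, read 245, 113, 119.7, 219 and 6.44 and 472, 881 and 3049.9 and rose 8.7-fold (log2 change 3.12, SE 0.62, adjusted p = 0.0025), with changes of 2.52 without 94 dpc replicate 5 and 3.84 without the 3 arrays of high Dap ratio. PLAC8, a small protein of myeloid and other cells, rose 8.65-fold (log2 change 3.11, SE 0.65, adjusted p = 0.0035). Its change was 4.03 without 28 dpn replicates 1 and 2, and its call was lost without the 3 arrays of high Dap ratio (adjusted p = 0.0754). FCGR2B, the inhibitory receptor for antibodies, rose 5.9-fold (log2 change 2.56, SE 0.44, adjusted p = 0.00093). All of these stages were free of overlap.

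Genes that fell included makers of collagen. FKBP10 and P3H4, which help fold and modify procollagen in the endoplasmic reticulum, read 1957, 3304, 2832, 2579 and 3313 and 695, 797, 576, 836 and 900.2 before birth. They read 364, 499 and 1074 and 69.2, 148 and 290.1 after birth, falls of 4.71-fold (log2 change -2.24, SE 0.26, adjusted p = 8e-05) and 4.74-fold (log2 change -2.25, SE 0.29, adjusted p = 0.00014). AEBP1, a collagen-binding protein of connective tissue, fell 4.71-fold (log2 change -2.24, SE 0.37, adjusted p = 0.00071). FHL2, a cofactor of heart and fetal muscle, read 3036, 2360.2, 2135, 2620.5 and 2679 and 398, 447 and 466, a fall of 5.68-fold (log2 change -2.51, SE 0.14, adjusted p = 3.8e-07) with little spread within a stage. IL18, an interleukin that drives interferon gamma, fell 5.69-fold (log2 change -2.51, SE 0.23, adjusted p = 1.3e-05) while interferon-stimulated genes rose, at 667, 749, 951, 1219.9 and 821 and 93.1, 146 and 219.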
